A study of Mus musculus with 24 samples.

Results

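The 38 genes described here encode the enzymes that activate fatty acids and shorten them by β-oxidation in the mitochondrion and the peroxisome, together with the acyl-CoA thioesterases and the electron carriers that serve the same chain of reactions. They were listed by name and function, with no threshold on a measured value. They were read in the H3K9ac peak lists of 12 libraries of 4T1 spheroids, aggregates of a mouse mammary carcinoma cell line grown in 3D. H3K9ac, the acetylation of lysine 9 of histone H3, marks active promoters, and peaks are the stretches of genome where the immunoprecipitated DNA stood above its local background. Each of 4 groups had 3 libraries, all from spheroids collected on day 5. Scramble spheroids carried a non-targeting guide, CPT1a knockout and KAT2a knockout spheroids carried guides against those genes, and these 3 groups were grown with 75 µM palmitate. The fourth group was CPT1a knockout spheroids given 5 mM acetate, for which the labels do not state palmitate, while a legend of the study describes spheroids with and without acetate as grown with it. Per the study's methods, all of these cells held an inducible Cas9 and a lentiviral guide and were selected with puromycin, and the labels do not name the guide or say whether a line is 1 clone. The labels do not say whether the 3 libraries of a group came from separate cultures, so p-values measure only the spread between these libraries. The comparisons address whether loss of CPT1a or of KAT2a alters H3K9 acetylation and whether acetate restores it.

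A fatty acid is first joined to coenzyme A by an acyl-CoA synthetase. Long-chain acyl-CoA then enters the mitochondrion through CPT1a, where each turn of β-oxidation runs through an acyl-CoA dehydrogenase, a hydratase, a hydroxyacyl-CoA dehydrogenase and a thiolase, and releases acetyl-CoA. The dehydrogenases pass their electrons to the respiratory chain through the flavoprotein ETF and its dehydrogenase. Peroxisomes shorten very-long-chain and branched fatty acids with acyl-CoA oxidases in the first step, and thioesterases cut acyl-CoA back to free fatty acid. Acetyl-CoA is the substrate of histone acetyltransferases such as KAT2a.

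A promoter was taken as the 1 kb on each side of any transcription start of the gene in GENCODE release M21. A gene was called in a library when at least 1 peak overlapped that window. The strength of a promoter was the highest fold enrichment over local background among its peaks, ranked within the library and given as a percentile from 0 (weakest) to 100 (strongest) among the 10777 genes called in every library. Ranks were used because fold enrichment moved with the library: its median over these genes was lowest in scramble, from 18.7 to 19.4, and in CPT1a knockout replicate 3, at 18.5, and reached 31.4 in CPT1a knockout replicate 2. The libraries held 16212 to 34370 peaks, the 3 scramble libraries the most and CPT1a knockout replicate 3 the fewest. The background level used by the peak caller, recovered from the fold enrichment and the p-value of each peak and proportional to depth, was lowest for CPT1a knockout replicate 3 (0.554) and highest for scramble replicate 1 (2.52). All 7 epithelial marker genes were called in all 12 libraries, while 5 of 6 leukocyte and 4 of 4 endothelial markers were called in none. Of the 6 fibroblast markers 4 were called in none, Pdgfra in 12 and Col1a1 in 11 libraries. Cpt1a was called in every library at ranks from 13.7 to 73.8 and Kat2a at ranks from 6.04 to 60.9, and these values do not check the knockouts, since a small edit in the coding sequence leaves the promoter in place. Spheroids are a bulk sample, so fewer cells with an acetylated promoter and less acetylation per cell cannot be told apart.

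The sequences just upstream of the start of 5 of these genes are shown because they anchor the results that follow. Acadm, Acad10, Etfa and Abcd3 are the promoters whose rank passed the test in CPT1a knockout, and Acox2 was the weakest promoter ranked. They are the 250 bases before the RefSeq start, 5′ to 3′ on the gene's strand, in build GRCm38.p6 and in lower case, with capitals for letters that match one of the 8 searched motifs on either strand.
Acadm: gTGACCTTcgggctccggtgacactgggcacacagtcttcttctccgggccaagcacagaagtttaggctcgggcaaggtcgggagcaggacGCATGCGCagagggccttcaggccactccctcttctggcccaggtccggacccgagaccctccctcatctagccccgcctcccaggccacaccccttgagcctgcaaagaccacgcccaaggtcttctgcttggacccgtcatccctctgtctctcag
Acad10: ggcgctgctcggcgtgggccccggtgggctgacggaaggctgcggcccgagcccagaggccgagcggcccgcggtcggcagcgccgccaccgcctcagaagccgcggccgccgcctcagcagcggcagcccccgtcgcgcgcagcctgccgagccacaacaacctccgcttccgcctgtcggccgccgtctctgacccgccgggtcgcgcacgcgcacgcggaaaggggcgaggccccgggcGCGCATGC
Etfa: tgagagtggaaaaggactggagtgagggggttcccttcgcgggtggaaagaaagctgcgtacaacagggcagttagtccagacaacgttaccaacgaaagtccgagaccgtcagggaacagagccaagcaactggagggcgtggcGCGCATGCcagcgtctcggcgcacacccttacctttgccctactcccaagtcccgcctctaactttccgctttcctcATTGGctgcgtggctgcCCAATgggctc
Abcd3: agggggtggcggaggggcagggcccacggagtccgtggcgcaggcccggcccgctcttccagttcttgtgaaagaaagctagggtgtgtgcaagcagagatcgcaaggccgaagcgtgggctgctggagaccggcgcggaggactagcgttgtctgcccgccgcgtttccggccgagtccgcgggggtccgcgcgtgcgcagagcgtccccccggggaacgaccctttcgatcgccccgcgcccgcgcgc
Acox2: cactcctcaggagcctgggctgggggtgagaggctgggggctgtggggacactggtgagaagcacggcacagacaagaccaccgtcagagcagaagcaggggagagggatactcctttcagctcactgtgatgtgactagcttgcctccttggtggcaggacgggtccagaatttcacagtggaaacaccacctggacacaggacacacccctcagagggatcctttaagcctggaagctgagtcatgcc

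All 5 lie on the minus strand, Acadm at chr3:153944644-153944893, Acad10 at chr5:121660511-121660760, Etfa at chr9:55512244-55512493, Abcd3 at chr3:121815303-121815552 and Acox2 at chr14:8259020-8259269. RefSeq promoters were found for 32 of the 38 genes, and Acad9, Acaa2, Decr1, Hsd17b4, Abcd2 and Acot13 were not matched. The letters GCGCATGC, the core bound by NRF1, a factor of nuclear-encoded mitochondrial genes, occurred on either strand in 4 of the 30 ranked enzyme genes among them (13.3%), against 5.11% of the 8530 ranked genes with a RefSeq promoter. The 4 were Acadm, Acad10, Etfa and Etfdh, and the match began 158 bases before the start in Acadm, 8 in Acad10 and 105 in Etfa. The CCAAT box was in 13 of 30 (43.3% against 37.5% of ranked genes), and Etfa held 2 copies, 28 and 11 bases before its start. The GC box GGGCGG was in 21 of 30 (70% against 62.7%) and the TATA box TATAAA in 1 of 30, Acot9 (3.33% against 5.45%). AAGGTCA, the core site of several nuclear receptors, was in 1 of 30, Acadm (3.33% against 2.34%), where it began 249 bases before the start. The E-box CACGTG, the ETS letters CCGGAAGT and the cyclic AMP response element TGACGTCA were in 0 of 30, against 8.69%, 7.07% and 3.04% of ranked genes. The 250 bases held 3 CpG dinucleotides in Acox2, 12 in Acadm, 16 in Etfa, 34 in Abcd3 and 42 in Acad10, with a median of 13 over the 32 genes, 10 over all genes and 17 over ranked genes. Over the 30 ranked enzyme genes with a RefSeq promoter the number of CpG followed mean rank with a Spearman rho of 0.34, and over the 8530 ranked genes of 0.26, both descriptions across genes that share libraries.

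H3K9ac was called at 34 of the 38 promoters in all 12 libraries, whereas 49.5% of the 21755 protein-coding genes were. Ehhadh, the peroxisomal bifunctional enzyme, Abcd2, a peroxisomal transporter of very-long-chain acyl-CoA, and Acsl6, a synthetase best known from brain, were called in none, as were 45.1% of all genes. They were also called in none with windows of 500 bp or 2 kb. Decr1, the mitochondrial 2,4-dienoyl-CoA reductase needed for polyunsaturated fatty acids, was called in 6 libraries. Its fold enrichment was 7.003 and 7.43 in CPT1a knockout replicates 1 and 2, then 6.52, 6.02 and 8.81 in the 3 acetate libraries and 5.27 in KAT2a knockout replicate 2. No scramble library held a Decr1 promoter peak, although the scramble libraries had the longest peak lists. Each of the 6 calls was weak, at most the 7.42nd percentile of the genes called in its library. With pileup and background scaled to the depth of the shallowest library, Decr1 was still called in 4 libraries, 2 of CPT1a knockout and 2 with acetate.

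**Figure D1:**
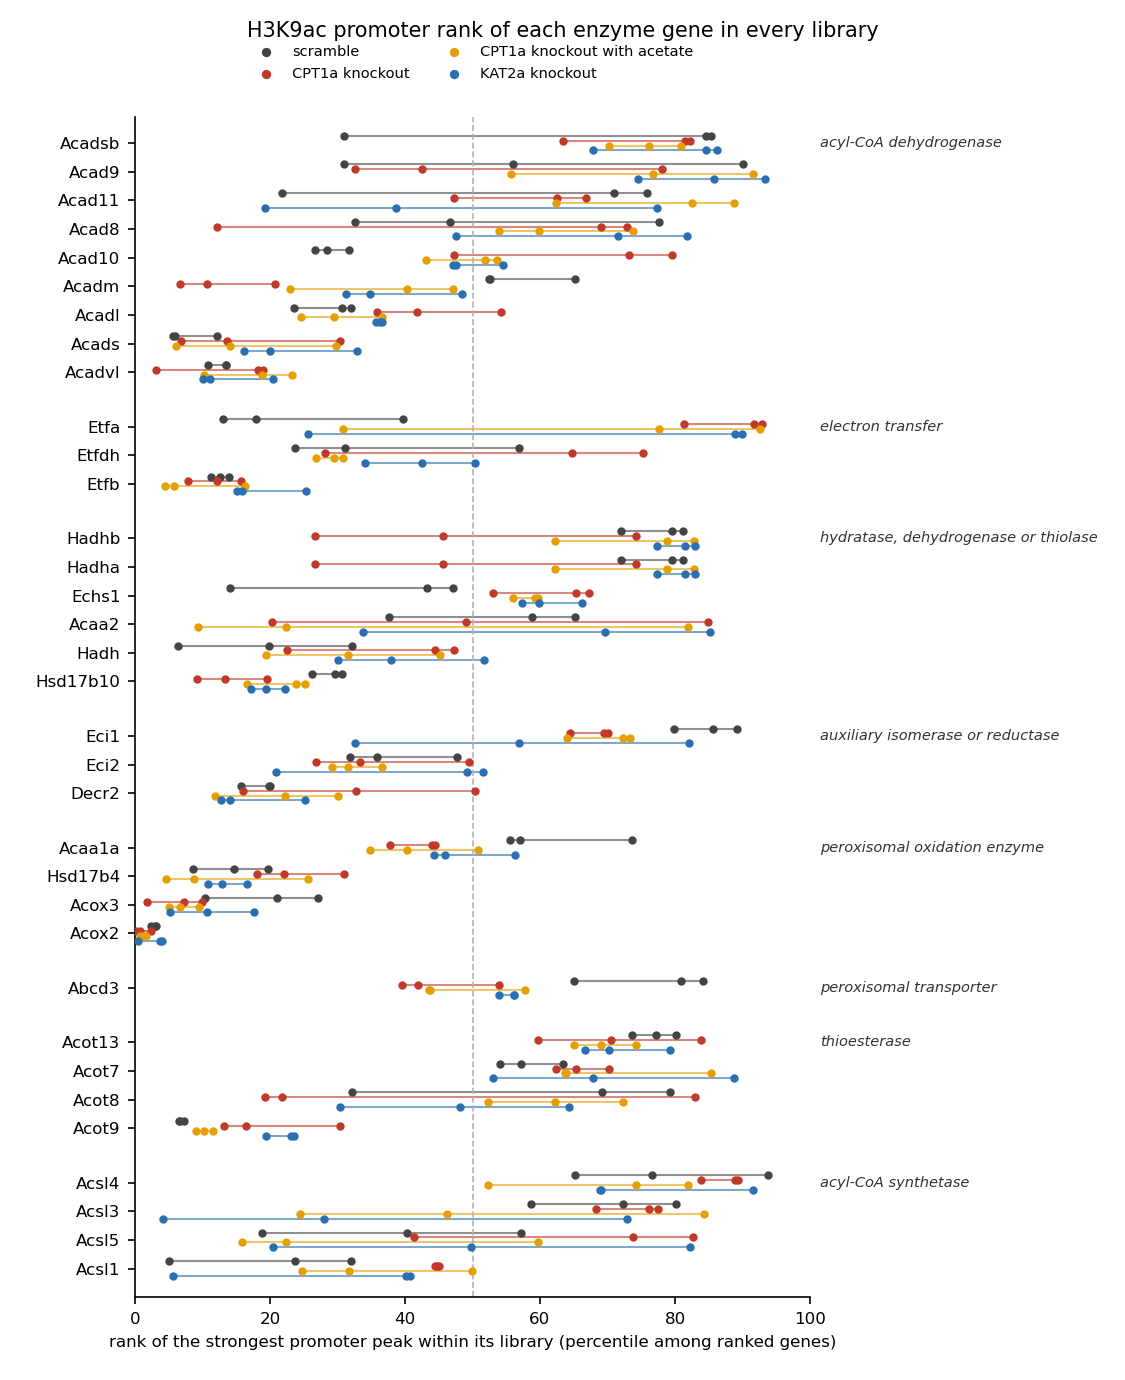
Rank of the strongest H3K9ac promoter peak of each of the 34 ranked enzyme genes (x axis, percentile within library) in every library, coloured by group and ordered by role. Points are libraries, bars join the lowest and highest of a group's 3, and the dashed line marks the 50th percentile. Acox2 sits at the far left in all 12 libraries and Acsl4 to the right of 50 in all 12, while the 3 scramble points of Acadm, Acad10 and Abcd3 lie apart from those of the other groups.

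The enzyme promoters spanned nearly the whole range of promoter strength. The median over the 34 of each gene's mean rank was 48.7, against 51.8 over all ranked genes. The 3 strongest were Acsl4, Acadsb and Acot13, with mean ranks over the 12 libraries of 78.0, 74.5 and 72.4. Acsl4, the synthetase that prefers arachidonic acid, had ranks of 93.8, 76.6 and 65.2 in scramble, 88.9, 89.3 and 83.8 in CPT1a knockout, 82.0, 52.3 and 74.2 with acetate, and 69.1, 68.9 and 91.5 in KAT2a knockout. Only CPT1a knockout kept its 3 Acsl4 ranks within 10 points of each other. Acadsb, the dehydrogenase of short branched chains from isoleucine, had ranks of 30.9, 84.5 and 85.3 in scramble, 81.5, 63.4 and 82.2 in CPT1a knockout, 70.3, 80.9 and 76.1 with acetate, and 86.2, 67.8 and 84.6 in KAT2a knockout. Its lowest value, in scramble replicate 1, lay over 30 points below every other library. Acot13, a mitochondria-associated long-chain thioesterase, had ranks of 77.2, 80.1 and 73.6 in scramble, 70.5, 59.7 and 83.8 in CPT1a knockout, 65.0, 68.97 and 74.2 with acetate, and 79.3, 66.6 and 70.3 in KAT2a knockout. Among these 3 genes only Acsl4 had groups that did not overlap, acetate against CPT1a knockout. The order of their mean ranks is within their spread, since the ranks of each gene varied by more over the 12 libraries than the means differed.

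The 3 weakest were Acox2, Acox3 and Etfb, with mean ranks of 1.91, 11.0 and 13.0. Acox2, the oxidase of branched fatty acids and bile acid intermediates, had ranks of 2.94, 3.11 and 2.37 in scramble, 0.125, 0.710 and 2.38 in CPT1a knockout, 0.970, 1.57 and 0.673 with acetate, and 0.515, 3.98 and 3.63 in KAT2a knockout. It stayed within the lowest 4% of ranked promoters in every library. Acox3, the other branched-chain oxidase, had ranks of 21.05, 27.1 and 10.3 in scramble, 1.84, 9.90 and 7.20 in CPT1a knockout, 6.69, 5.01 and 9.47 with acetate, and 10.7, 5.21 and 17.6 in KAT2a knockout. Etfb, the small subunit of ETF, had ranks of 12.7, 11.3 and 13.9 in scramble, 15.7, 12.2 and 7.82 in CPT1a knockout, 4.37, 16.3 and 5.75 with acetate, and 25.3, 15.1 and 15.9 in KAT2a knockout. Its partner Etfa, which encodes the large subunit, had a mean rank of 61.8 over the 12 libraries. In scramble the 2 stood closer, with means of 12.6 for Etfb and 23.6 for Etfa. Etfa even ranked below Etfb in scramble replicate 3, at 13.1 against 13.9. Among the mitochondrial acyl-CoA dehydrogenases, Acadvl, the very-long-chain enzyme of the first turn, and Acads, the short-chain enzyme, had mean ranks of 14.3 and 16.1. Acadl and Acadm, of long and medium chains, had 34.8 and 36.1, and Acad9, which also assembles respiratory complex I, had 67.3. Hadha and Hadhb, the subunits of the trifunctional protein, start back to back from 1 promoter and had the same rank in every library, with a mean of 70.4. They are 1 measurement, although every count of genes given here includes both. In the plot of ranks by library, the spread within a group exceeded 40 points for several genes, among them Acad8, Acaa2, Acsl3 and Acsl5.

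In CPT1a knockout against scramble, 4 of the 34 ranked enzyme genes passed the test, 2 in each direction. limma was fitted to the ranks of all 10777 genes after conversion to normal scores, with Benjamini-Hochberg adjustment over all genes and a threshold of 0.05. Over all genes 4.65% passed as higher and 5.19% as lower. Etfa and Acad10 rose, and Acadm and Abcd3 fell. By the simpler criterion that the 3 ranks of one group all lie above or below the 3 of the other, 6 enzyme genes lay higher and 6 lower, or 17.6% each way, against 15.5% and 15.3% of all genes. The median rank difference was 1.74 points over the enzyme genes and 0.22 over all genes. For a single gene, an exact permutation test of 3 against 3 libraries cannot give a p below 0.1.

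Etfa (chr9:55454508-55512243, minus strand) encodes the large ETF subunit that takes electrons from all the acyl-CoA dehydrogenases. Its ranks were 17.97, 39.7 and 13.1 in scramble, 92.8, 81.3 and 91.7 in CPT1a knockout, 77.6, 30.8 and 92.6 with acetate, and 88.9, 89.9 and 25.6 in KAT2a knockout. All 3 CPT1a knockout libraries lay over 40 points above all 3 scramble libraries, while the acetate and KAT2a knockout groups each held 1 library at scramble level. The mean rose from 23.6 ± 14.2 to 88.6 ± 6.38 (SD, n = 3 each), a normal-score difference of 2.01 with SE 0.52 and a limma adjusted p of 0.0290. Fold enrichment itself also stood apart, at 9.80 to 17.2 in scramble and 28.4 to 43.3 in CPT1a knockout.

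Acad10 (chr5:121621026-121660514, minus strand) encodes a little-studied member of the acyl-CoA dehydrogenase family. It had ranks of 26.7, 28.5 and 31.7 in scramble, 79.5, 47.2 and 73.2 in CPT1a knockout, 51.9, 43.1 and 53.6 with acetate, and 47.1, 54.6 and 47.6 in KAT2a knockout. The 3 scramble libraries lay below the other 9. The mean rose from 29.0 ± 2.52 to 66.7 ± 17.1 (SD, n = 3 each) in CPT1a knockout, with a limma adjusted p of 0.0273, and fold enrichment was 14.1 to 14.7 in scramble and 22.9 to 36.1 in CPT1a knockout. Acad10 shares its promoter with Brap, which starts on the other strand and has the same peaks, so the change at this promoter belongs to either gene or both. The separate promoter of Atxn2, 50823 bp away, also rose in CPT1a knockout, by 44.2 points (limma adjusted p 0.0261). Mapkapk5, Aldh2, Acad12 and Sh2b3, the other ranked genes nearby, did not pass the threshold.

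Acadm (chr3:153922357-153944632, minus strand) encodes the medium-chain acyl-CoA dehydrogenase. Its ranks were 52.4, 65.1 and 52.6 in scramble, 6.69, 20.8 and 10.7 in CPT1a knockout, 40.4, 23.0 and 47.1 with acetate, and 34.8, 31.2 and 48.4 in KAT2a knockout. Scramble lay above the other 9 libraries and CPT1a knockout below the other 9. The mean fell from 56.7 ± 7.29 to 12.7 ± 7.25 (SD, n = 3 each), a normal-score difference of -1.36 with SE 0.27 and a limma adjusted p of 0.00961. Fold enrichment, which is not ranked, overlapped between these groups, at 19.2 to 22.7 in scramble and 9.92 to 22.3 in CPT1a knockout, and the value of 22.3 was in replicate 2, the library with the median of 31.4.

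Abcd3 (chr3:121758774-121815302, minus strand) encodes the peroxisomal transporter that imports branched and dicarboxylic acyl-CoA. Its ranks were 84.2, 65.1 and 80.9 in scramble, 41.9, 39.5 and 54.0 in CPT1a knockout, 43.8, 43.6 and 57.9 with acetate, and 54.0, 56.1 and 56.2 in KAT2a knockout. All 3 scramble libraries lay above the other 9. The mean fell from 76.7 ± 10.2 to 45.2 ± 7.75 (SD, n = 3 each) in CPT1a knockout, with a limma adjusted p of 0.0391. Fold enrichment overlapped, at 22.7 to 27.5 in scramble and 19.3 to 28.5 in CPT1a knockout. Acadm passed the threshold under all 11 alternative settings and left-out libraries, with adjusted p from 0.00389 to 0.0481. Etfa passed under 7 of 11 (0.00117 to 0.0963) and missed it without replicate 1 or 3 of either group. Acad10 passed under 5 of 11 (0.00171 to 0.0837) and missed it without any 1 scramble library, without CPT1a knockout replicate 1 or 3, and with only the 2 compared groups fitted (0.0837). Abcd3 passed under 4 of 11 (0.00507 to 0.139) and missed it without scramble replicate 1 or 3 or CPT1a knockout replicate 1 or 2. Its limma adjusted p was also above the threshold with the GC trend removed (0.123), with the GC trend removed and the replicate block (0.139), and with only the 2 compared groups fitted (0.0991).

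The other 8 enzyme genes whose CPT1a knockout and scramble ranks did not overlap missed the limma threshold. Echs1, the enoyl-CoA hydratase, was 27.1 points higher with a limma adjusted p of 0.0987, and Acsl1, the main long-chain synthetase of fat and muscle, was 24.5 points higher. Acadl and Acot9, a mitochondrial thioesterase, were 15.2 and 13.2 points higher. Lower in CPT1a knockout were Acaa1a, the peroxisomal thiolase (-20.0 points), Eci1, the mitochondrial enoyl-CoA isomerase (-16.9), Hsd17b10, a short-chain hydroxyacyl-CoA dehydrogenase (-14.9), and Acox3 (-13.2). By role, 2 of the 9 acyl-CoA dehydrogenases lay higher and 1 lower, against 15.5% and 15.3% of all genes. The 6 hydratases, dehydrogenases and thiolases had 1 higher and 1 lower. The 3 electron transfer genes, 4 thioesterases and 4 ranked synthetases each had 1 higher and 0 lower. The 4 ranked peroxisomal oxidation enzymes had 0 higher and 2 lower. The 3 ranked auxiliary isomerases or reductases and the 1 ranked peroxisomal transporter each had 0 higher and 1 lower.

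**Figure D2:**
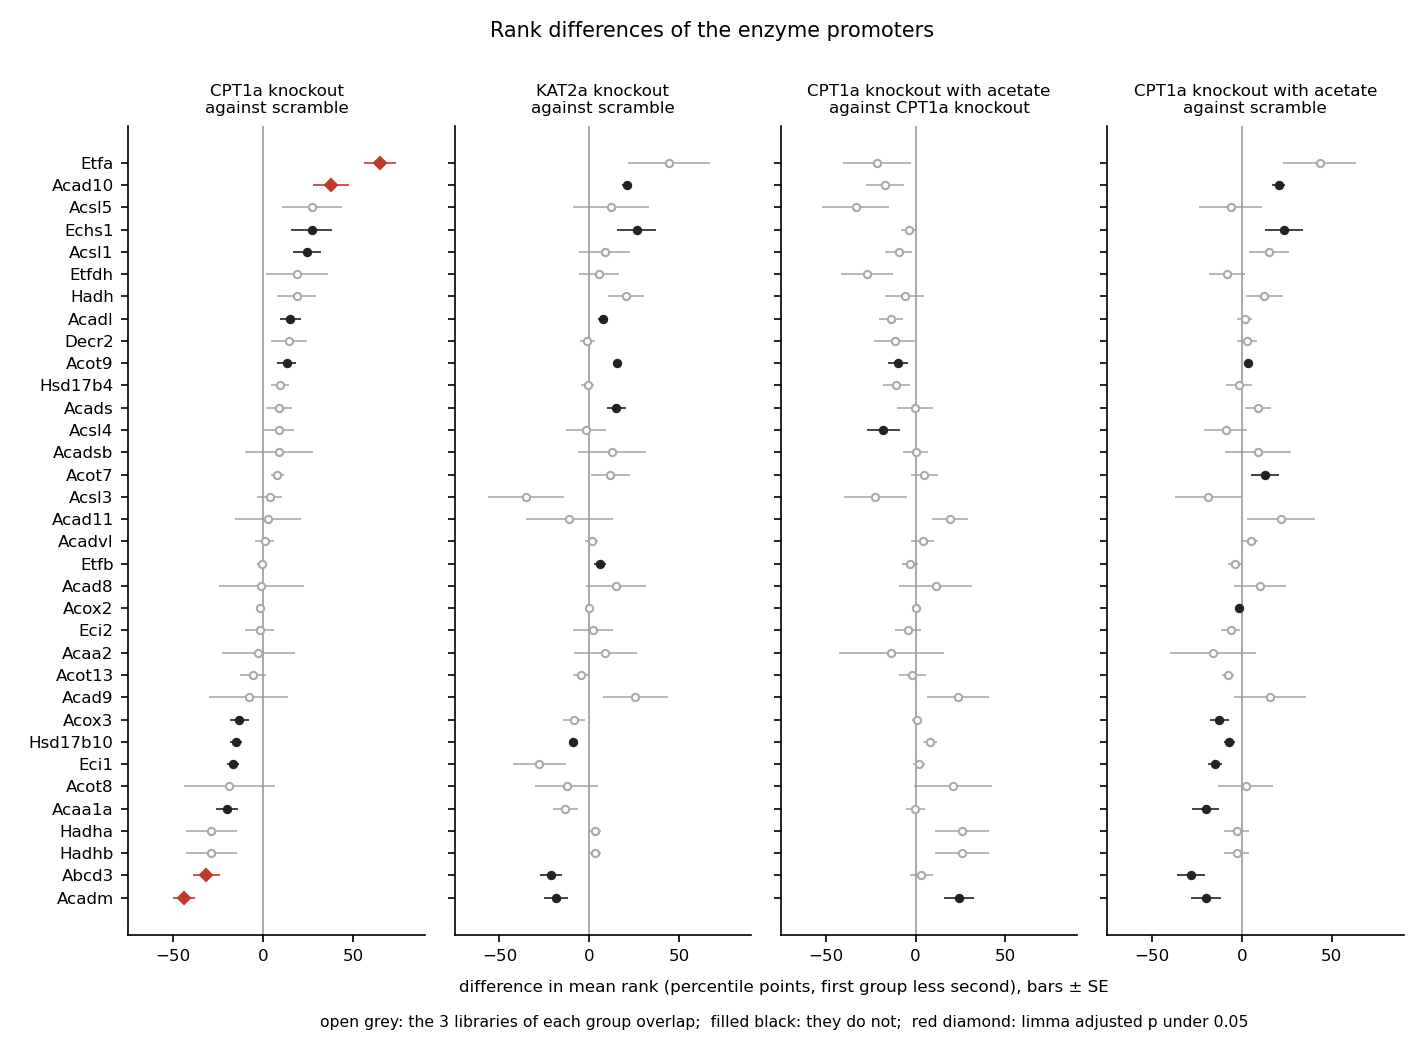
Difference in mean rank (x axis, percentile points, bars ± SE from the pooled SD of 3 libraries a group) for the 34 ranked enzyme genes in the 4 comparisons. Open grey points are genes whose groups overlapped, filled black points genes whose groups did not, and red diamonds genes past the limma threshold. Red diamonds appear in the first panel alone, at Etfa, Acad10, Abcd3 and Acadm.

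In KAT2a knockout against scramble, no enzyme gene passed the limma threshold, and 6 of 34 (17.6%) had an unadjusted p under 0.05, against 21.5% of all genes. With promoters ranked by -log10 p instead of fold enrichment, Etfa (limma adjusted p 0.00917), Abcd3 (0.0105), Eci1 (0.0193) and Acot9 (0.0205) passed it. The share of all genes passing in that setting is not given here. Over all genes 1.57% passed as higher and 2.12% as lower. The ranks did not overlap for 6 enzyme genes that lay higher and 3 that lay lower, against 14.3% and 15% of all genes. The median difference was 3.03 points over the enzyme genes and 0.10 over all genes. Among these 9 genes the 5 largest differences were those of Echs1, Abcd3, Acad10, Acadm and Acot9. Larger differences came with overlapping groups at Etfa (44.6 points, SE 22.8), Acsl3 (-35.4, SE 21.1) and Eci1 (-27.7, SE 14.5). Echs1 had ranks of 47.1, 14.1 and 43.2 in scramble, 65.4, 67.2 and 53.1 in CPT1a knockout, 59.3, 56.0 and 59.7 with acetate, and 57.4, 59.9 and 66.2 in KAT2a knockout. Scramble lay below the other 9 libraries, and the KAT2a knockout mean was 26.3 points higher than that of scramble (SE 10.7, n = 3 each). Echs1 shares its promoter with Paox, so its values cannot be assigned to one of them.

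Acot9 had ranks of 6.495, 7.29 and 6.63 in scramble, 13.2, 16.4 and 30.4 in CPT1a knockout, 11.5, 10.2 and 8.99 with acetate, and 23.1, 23.5 and 19.4 in KAT2a knockout. Its scramble libraries lay below the other 9 and within 1 point of each other. The KAT2a knockout mean was 15.2 points higher than that of scramble (SE 1.34), with the smallest limma adjusted p of the enzyme genes in this comparison, 0.0949, and a limma adjusted p of 0.0222 once the trend of rank with promoter GC content was removed. The differences were -21.3 points for Abcd3 (SE 5.93), -18.6 for Acadm (SE 6.72) and 20.7 for Acad10 (SE 2.82), from the ranks given above. The others without overlap were Acads, Acadl and Etfb, 15.1, 7.44 and 6.11 points higher, and Hsd17b10, whose difference was -9.25 points. Leaving out KAT2a knockout replicate 3 raised the count of 9 to 15, and leaving out KAT2a knockout replicate 2 or scramble replicate 2 raised it to 14. Smaller groups overlap less by construction.

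Acetate was compared with the CPT1a knockout that did not receive it. No gene of any kind passed the limma threshold (0% in either direction), with 4 of 34 enzyme genes (11.8%) and 9.33% of all genes at an unadjusted p under 0.05, and 0 enzyme genes passed with ranks by -log10 p. The ranks of 1 enzyme gene lay wholly higher with acetate and those of 2 wholly lower, against 5.47% and 8.69% of all genes. Acadm was higher, at 36.8 ± 12.4 with acetate and 12.7 ± 7.25 without (SD, n = 3 each), a difference of 24.1 points with SE 8.30. Its acetate mean stood between that of CPT1a knockout and that of scramble. Acsl4 and Acot9 lay lower with acetate, by differences of -17.9 (SE 9.06) and -9.75 points (SE 5.34). Etfa, Acad10 and Abcd3 overlapped between these groups, with differences of -21.6, -17.1 and 3.26 points. Leaving out any 1 of the 6 libraries raised the count of 3 to between 6 and 9, where smaller groups overlap less by construction. With the GC trend removed the count was 1.

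Against scramble, the acetate group had 4 enzyme genes wholly higher and 7 wholly lower, with 14.9% and 17% of all genes as background. No enzyme gene passed the limma threshold, 4 of 34 (11.8%) had an unadjusted p under 0.05 against 22.8% of all genes, and over all genes 1.77% passed as higher and 3.55% as lower. With promoters ranked by -log10 p, Abcd3 (limma adjusted p 0.00718), Etfa (0.0143), Acaa1a (0.0464) and Acad10 (0.0485) passed it. The differences were -28.3 points for Abcd3 (SE 7.54, limma adjusted p 0.0757), -19.9 for Acadm (SE 8.30), 23.5 for Echs1 (SE 10.5) and 20.6 for Acad10 (SE 3.56). Acaa1a had ranks of 73.7, 55.5 and 57.1 in scramble, 37.8, 44.0 and 44.5 in CPT1a knockout, 40.3, 50.9 and 34.8 with acetate, and 45.9, 44.3 and 56.3 in KAT2a knockout. Its acetate and CPT1a knockout libraries lay below scramble, and 1 KAT2a knockout library reached the scramble range. Acaa1a starts 3 bp from Myd88, on the other strand, and shares its peak. Eci1, Acox3, Hsd17b10 and Acox2 were also lower, and Acot7 and Acot9 higher. Among the peroxisomal enzymes 4 were lower and 0 higher. These 3 comparisons with scramble share the same 3 scramble libraries and are not independent of each other.

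For 6 enzyme genes the 3 scramble libraries lay apart from all 9 others. Scramble was higher at Acadm, Hsd17b10 and Abcd3 (3 of 34, against 8.12% of all genes) and lower at Acad10, Echs1 and Acot9 (3 of 34, against 4.51%). Over the 220 ways of choosing 3 libraries of 12, the exact two-sided permutation p was 0.00455 for Echs1 and for Abcd3, the smallest this design can give, 0.0136 for Acadm, Acad10 and Hsd17b10, and 0.0273 for Acot9. Adjusted over all 10777 genes, no gene passed 0.05, since the smallest adjusted p was 0.0538. At an unadjusted p under 0.05 there were 10 of 34 enzyme genes (29.4%) and 24.9% of all genes.

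Scramble also differed in the shape of its peaks. A gap was counted where peaks lay on both sides of a RefSeq start within 1 kb and none covered it, a measure chosen after the peaks had been seen. In scramble, 5, 11 and 12 of the 30 ranked enzyme genes with a RefSeq promoter had such a gap, against 15.1%, 24.5% and 27.0% of the 8530 ranked genes. The CPT1a knockout libraries had 0, 0 and 3, against 1.2%, 1.79% and 5.45% of ranked genes. The acetate libraries had 1, 5 and 2, against 3.73%, 9.57% and 3.20%, and the KAT2a knockout libraries 1, 1 and 3, against 2.27%, 1.22% and 6.14%. Acadm, Acad10, Acox3 and Acsl4 were split in all 3 scramble libraries. Of these, Acad10 was split in 0 of the 9 others, Acadm and Acsl4 in 2 acetate libraries each, and Acox3 in all 3 KAT2a knockout libraries and 1 library of each remaining group. In scramble the stronger Acadm peak was the one inside the gene and the stronger Acad10 peak the one upstream. The part of this split in the rank differences of Acadm and Acad10 was not tested.

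**Figure D3:**
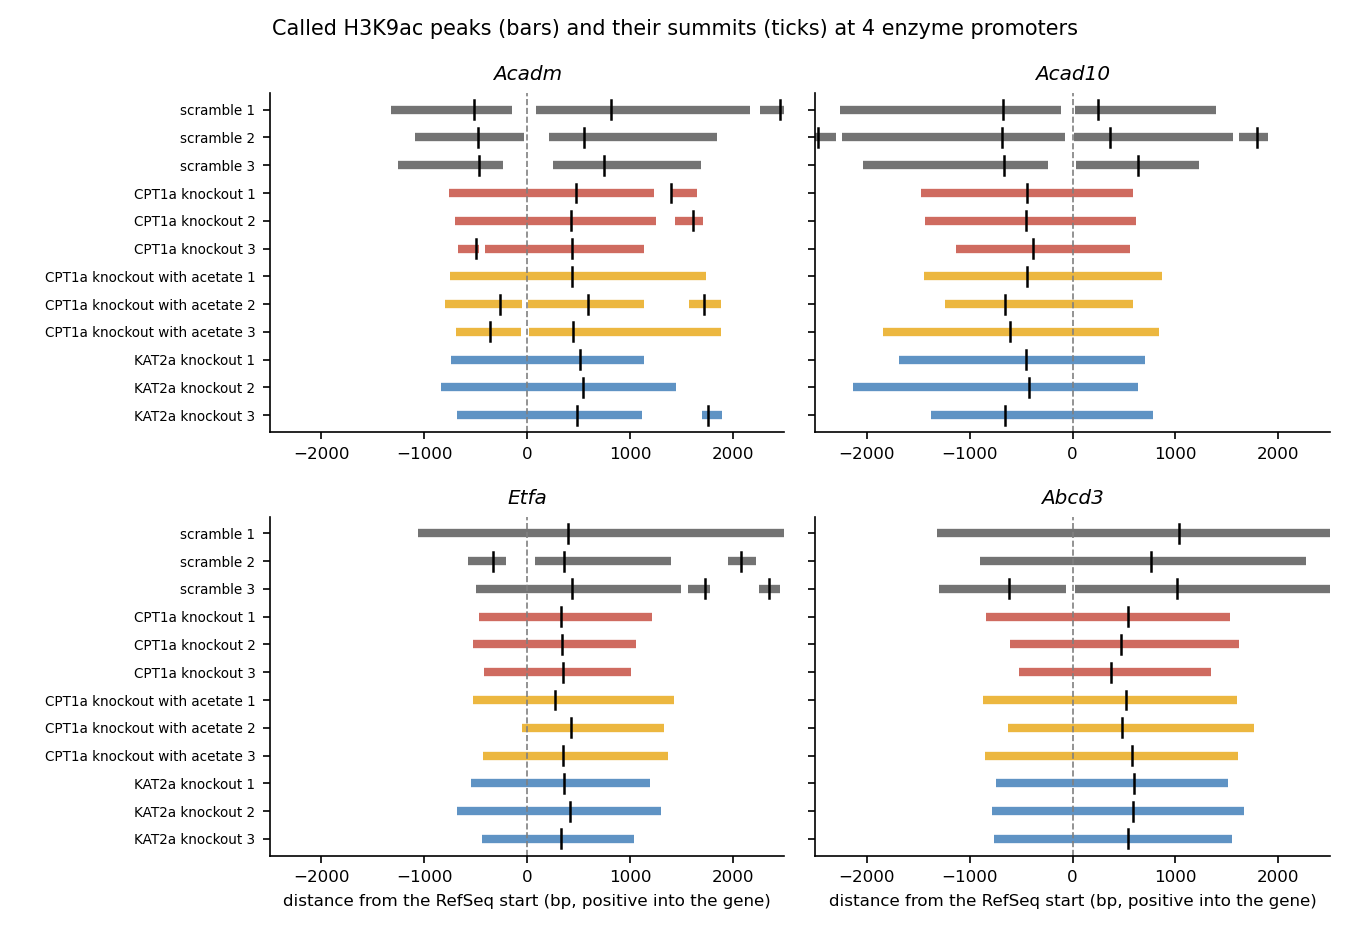
Called H3K9ac peaks (bars) and their summits (black ticks) around the RefSeq start of Acadm, Acad10, Etfa and Abcd3 in the 12 libraries, coloured by group. The x axis gives the distance from the start in bp, positive into the gene. Acadm and Acad10 show a gap at the start in the 3 scramble libraries, and Acad10 in 0 of the other 9.

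In Acad10, counting bp from the start with negative values upstream, scramble peaks ran from -2257, -2240 and -2033 to -116, -70 and -235, and a weaker second peak began at 22, 17 and 31. The 9 other libraries had 1 peak, which began between -2136 and -1130 and ended between 562 and 869. The strongest Acad10 summit was upstream in all 12 libraries, toward Brap. In Etfa, 1 peak spanned the start in 11 of 12 libraries, with the summit 267 to 437 bp inside the gene, and scramble replicate 2 was the exception, with a gap at the start. In Abcd3, the scramble peaks were 4340, 3173 and 3286 bp wide with summits 1034, 761 and 1015 bp inside the gene, and the 9 other peaks were 1864 to 2472 bp wide with summits 371 to 595 bp inside. Acadm, Acad10 and Etfa can be placed on the sequences shown above, whose last base is the one before the start.

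**Figure D4:**
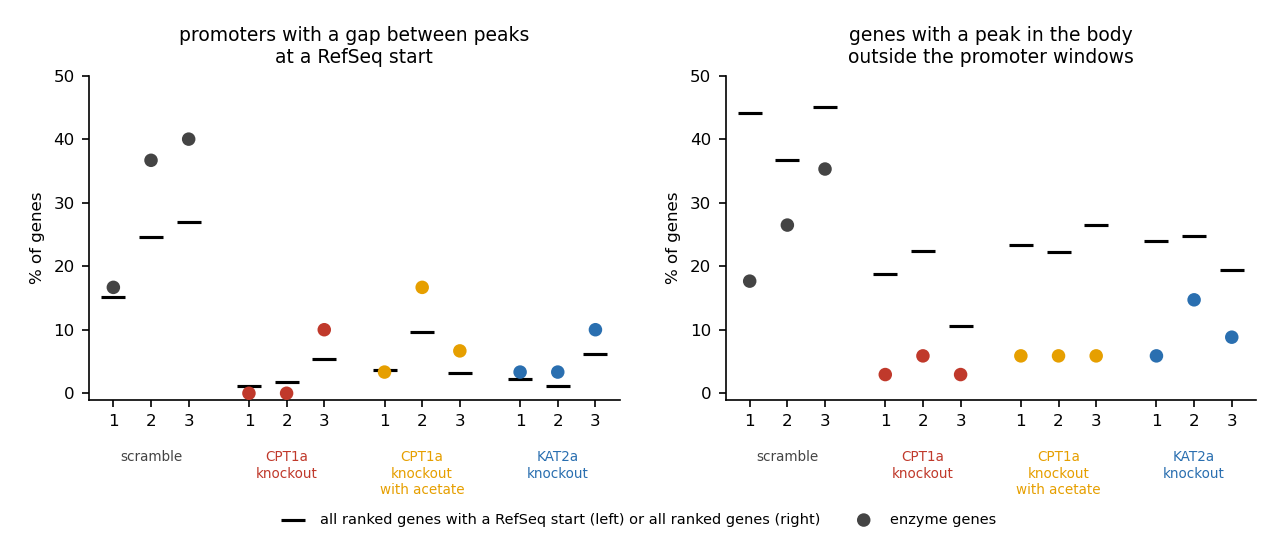
Share of genes with a gap between peaks at a RefSeq start (left) and with a peak in the gene body outside the promoter windows (right), in each library. Coloured points are the enzyme genes (30 left, 34 right) and black dashes all ranked genes. The scramble points are the highest on the right, and on the left they are the highest except that acetate replicate 2 equals scramble replicate 1 at 16.7%. On the right every coloured point lies below its dash.

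Where the widths of enzyme promoters stood apart from scramble, they were narrower in all but 1 gene. The width was that of the widest peak overlapping the promoter. In CPT1a knockout 0 enzyme genes lay wholly wider and 8 wholly narrower, against 2.09% and 40.4% of all genes, and the median difference was -342 bp over the enzyme genes and -571 bp over all genes. In KAT2a knockout 1 was wider and 5 narrower, against 5.93% and 26.4%. With acetate, 0 were wider and 6 narrower than in scramble (3.18% and 34.2% of all genes), and 9 were wider and 1 narrower than in CPT1a knockout without acetate (8.62% and 0.232%). The gene wider in KAT2a knockout was Acot13, whose difference turned from 356 bp to -1574 bp when peaks within 500 bp were merged, and the gene narrower with acetate was Acsl4. The depth of the libraries moved with these widths, since the shallowest library, CPT1a knockout replicate 3, also had the lowest median promoter width, 1467 bp against 2919 bp in the deepest, scramble replicate 1. When peaks within 500 bp were first merged, the count rose from 8 to 27 in CPT1a knockout, from 6 to 23 in KAT2a knockout and from 6 to 27 with acetate, each against scramble. Shares over all genes with merged peaks are not given here, so the rise does not set the enzyme genes apart.

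Acad8, a mitochondrial enzyme of valine breakdown, had the largest width difference. Its peak measured 3296, 3632 and 3543 bp in scramble, 2043, 1983 and 1608 bp in CPT1a knockout, 2346, 2176 and 1987 bp in KAT2a knockout, and 2676, 2260 and 2569 bp with acetate. Against scramble the difference was -1612 bp in CPT1a knockout (SE 169) and -1321 bp in KAT2a knockout (SE 144), and it was 624 bp wider with acetate than without (SE 185). Acad11 measured 4768, 4181 and 2712 bp in scramble and 2564, 2415 and 2173 bp in CPT1a knockout, and overlapped in the other comparisons. The shared Hadha and Hadhb peak measured 3467, 3128 and 3782 bp in scramble, 2424, 2405 and 2290 bp in CPT1a knockout, 2591, 2586 and 2451 bp in KAT2a knockout, and 2627, 2566 and 2559 bp with acetate. Its rank in CPT1a knockout, at 26.7, 74.2 and 45.6, overlapped with the 72.0, 81.2 and 79.5 of scramble.

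Acsl4 moved the other way with acetate. Its widest promoter peak measured 2824, 2293 and 2675 bp in scramble, 3181, 3336 and 2760 bp in CPT1a knockout, 2524, 2726 and 2325 bp in KAT2a knockout, and 2365, 2155 and 2251 bp with acetate. The difference between acetate and none was -835 bp (SE 182), and the direction turned, to 22.7 bp wider, when peaks within 500 bp were merged. Acad9 measured 1821, 2195 and 1580 bp in CPT1a knockout and 2693, 2258 and 2668 bp with acetate, 674 bp wider (SE 228). Acsl5 measured 3828, 2923 and 3067 bp in scramble and 2882, 2022 and 2090 bp with acetate, a difference of -941 bp (SE 394). Hsd17b4, the peroxisomal multifunctional enzyme, measured 1279, 1329 and 1259 bp in scramble, 917, 905 and 860 bp in CPT1a knockout, 840, 1134 and 941 bp in KAT2a knockout, and 961, 942 and 1013 bp with acetate. It was narrower than scramble in all 9 other libraries, with a difference of -395 bp in the mean of CPT1a knockout (SE 27.1).

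Peaks in the bodies of the enzyme genes, outside the promoter windows, were most frequent in scramble. The 3 scramble libraries had such peaks in 6, 9 and 12 of the 34 ranked enzyme genes, against 44.2%, 36.7% and 45.1% of all ranked genes. The 9 other libraries had them in 1 to 5 of 34, against 10.7% to 26.5% of all ranked genes. Acot7, a cytosolic thioesterase best known from brain, held the most, with 9 peaks summed over the 3 scramble libraries, 4 over those given acetate and 1 over those of each knockout without it. Acsl5, a synthetase of gut and liver, followed with 3 in scramble, 2 with acetate, 0 in CPT1a knockout and 3 in KAT2a knockout. Hadha held 5 and Etfa 4, all in scramble.

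The summit lay over 500 bp upstream of the start for 6 of 13 genes with a shared promoter. The share over all ranked genes with shared promoters is not given here. Of the 34 ranked genes, 13 had a start of another gene within 1 kb. The summit of the strongest peak, taken as the median over 12 libraries from the nearest GENCODE start, lay over 500 bp upstream in 7 of 34 enzyme genes, against 6.75% of all ranked genes. Of those 7, 6 shared their promoter. Acadsb with Ikzf5 (-532 bp), Acad10 with Brap (-526 bp), Hadhb with Hadha (-550 bp) and Acot13 with Tdp2 (-578 bp) had the neighbour on the other strand. Etfb (-754 bp) was also among the 6, and its neighbour Gm45233 starts on the same strand. Acaa2, the mitochondrial thiolase, was the one with a promoter of its own (-754 bp). Over all 34 genes the median summit lay 184 bp into the gene, against 256 bp over all ranked genes, with 23 of 34 (67.6%) downstream of the start, against 78.4%. Acadsb and Acad10 had their summit upstream in 12 of 12 libraries.

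Mitochondrial enzyme promoters ranked above peroxisomal ones in every library, by a margin that varied widely. The median rank of the 18 ranked mitochondrial genes less that of the 7 ranked peroxisomal genes was 18.3, 4.51 and 12.3 points in scramble, 7.94, 16.3 and 4.82 in CPT1a knockout, 41.2, 0.176 and 24.6 with acetate, and 36.9, 21.1 and 30.4 in KAT2a knockout. The group means were 11.7 ± 6.93, 9.68 ± 5.93, 22.0 ± 20.6 and 29.5 ± 7.94 (SD, n = 3 each). The 3 KAT2a knockout values lay above the 3 of scramble and the 3 of CPT1a knockout, and the acetate values overlapped with every other group. The direction in scramble depended on the list. With the shared Hadha and Hadhb promoter counted once and the thioesterases and the enzymes of both compartments added, the scramble mean turned to -3.65. The peroxisomal median rested on few genes, 3 of them among the weakest promoters (Acox2, Acox3 and Hsd17b4), while Abcd3, Acot8 and Acaa1a had mean ranks of 56.4, 52.8 and 48.8. Both peroxisomal genes called in no library are outside these medians.

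**Figure D5:**
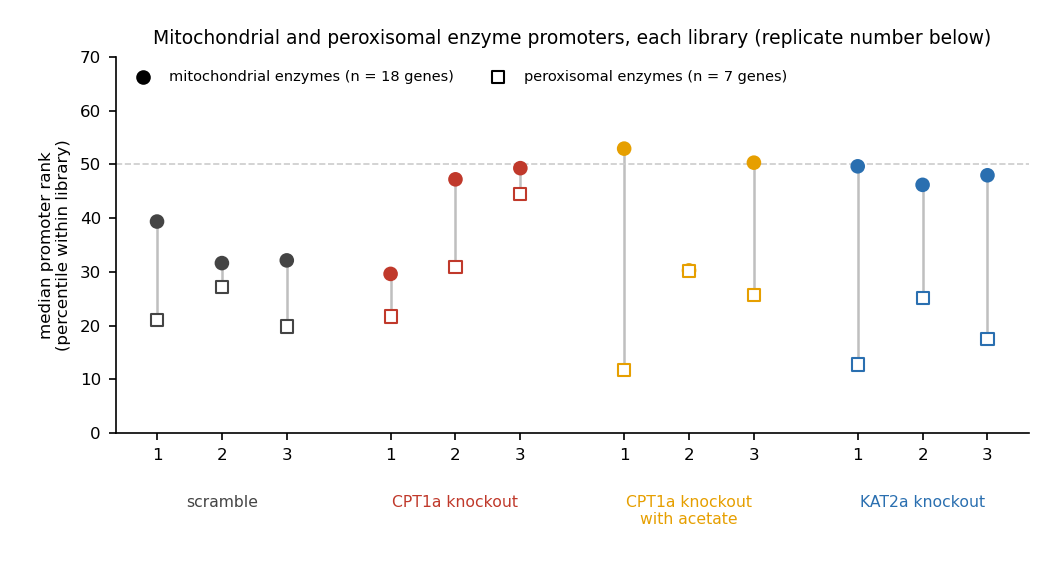
Median promoter rank (y axis, percentile within library) of the 18 mitochondrial (filled circles) and 7 peroxisomal (open squares) enzyme genes in each library, coloured by group, with grey lines joining the pair. The circle lies above the square in all 12 libraries, by 0.176 points in acetate replicate 2 and by 41.2 points in acetate replicate 1.

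Other genes of fatty acid breakdown, from a list of 55 that holds fatty acid transport proteins, acyl-CoA binding proteins and further oxidases, thioesterases and synthetases, were read in the same way. Of the 55, 32 were called in all 12 libraries and 20 in none, among them 5 medium-chain synthetases (Acsm1 to Acsm5). In CPT1a knockout against scramble 3 of the 32 lay wholly higher and 8 wholly lower, with 15.5% and 15.3% of all genes as background. The counts were 2 and 8 in KAT2a knockout (14.3% and 15% of all genes), 3 and 11 with acetate against scramble (14.9% and 17%), and 1 and 2 with acetate against CPT1a knockout (5.47% and 8.69%). Past the limma threshold in CPT1a knockout were 3 of 32, all lower, against 5.19% of all genes: Scp2, the peroxisomal sterol carrier and thiolase (-47.3 points, adjusted p 0.00965), Hacl1, the lyase of peroxisomal α-oxidation (-43.9, adjusted p 0.0185), and Echdc1, an ethylmalonyl-CoA decarboxylase (-32.7, adjusted p 0.0327). Scp2 also passed in KAT2a knockout (-51.2 points, limma adjusted p 0.0168, against 2.12% of all genes lower), and Scp2, Hacl1 and Echdc1 passed with acetate against scramble (3.55% of all genes lower, -43.0, -41.2 and -41.9 points, adjusted p 0.0245, 0.0374 and 0.0103).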

How the data were processed

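H3K9ac was profiled by ChIPmentation, in which immunoprecipitated chromatin is tagged on beads by the Tn5 transposase. Per the labels, reads were processed with Bowtie2, SAMtools, deepTools and MACS2 on mm10, with dm6 listed too, while the study's methods name BWA, and the versions of the aligner and the peak caller are not given in the sources used here. The labels and the methods also give different catalogue numbers for the antibody. The authors deposited 1 MACS2 peak list per H3K9ac library, which holds for each peak its fold enrichment over local background (a ratio), its -log10 p and its -log10 q. The 12 input libraries and the Drosophila spike-in were not analysed here, so ranks show order within a library and not total acetylation.

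Members and gene lists were chosen with earlier results of these data known. Genes were named by this rule: in each comparison those past the limma threshold or, with none, the 5 largest rank differences among genes whose groups did not overlap, the 3 largest width differences among such genes, the 3 strongest and 3 weakest promoters, and genes not called in all libraries. Others were named after their values were seen. Peaks were assigned to the 1 kb on each side of each GENCODE M21 start with an overlap of at least 1 bp, and ranked with Python 3.11.15, numpy 2.4.6 and pandas 2.3.3. Ranks were converted to normal scores and fitted over all 4 groups with limma 3.58.1 in R 4.3.3, with Benjamini-Hochberg adjustment over all 10777 ranked genes, which was tested on simulated data. Promoter sequences came from RefSeq, build GRCm38.p6, by samtools 1.23.1. Width was that of the widest overlapping peak. The depth of the reads is not in the lists, and the background level of each library was recovered from its peaks. Alternatives covered the window, the ranked measure, GC content, list length, depth, the fitted groups, the replicate number as a block, merging of peaks and each library left out.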

Additional observations from a re-analysis of the deposited data

How the results depend on the processing

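The 34 genes called in all 12 libraries were 33 or 34 under every alternative tried. For single genes whose groups did not overlap, 668 values under the alternatives kept direction and separation. Among them, 210 values of rank and 180 of width came from leaving out 1 library. Groups that do not overlap stay apart there by construction, so those values do not measure stability. A further 50 kept direction with overlapping groups and 6 reversed. The 6 were the Acox2 rank with acetate against scramble once the GC trend was removed (0.406 points), the Eci1 width in CPT1a knockout against scramble as a rank of width (1.07 points), the Acot13 width in KAT2a knockout (-1574 bp) and the Acsl4 width with acetate against CPT1a knockout (22.7 bp) with peaks merged, and the widths of Hadha and Hadhb with acetate against CPT1a knockout as ranks (-0.591 points each). The cause was not tested.

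The number of enzyme genes with non-overlapping ranks ranged from 10 to 15 in KAT2a knockout and from 6 to 9 with acetate against CPT1a knockout when 1 library was left out, where smaller groups overlap less by construction, and was 1 in the latter with the GC trend removed. For scramble against the 9 others, with alternatives chosen after seeing the data, it was 5 to 9. Shares over all genes under these rank settings are not given here.

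For widths, covered bases of the window gave 16 in CPT1a knockout, 12 in KAT2a knockout, 10 with acetate against scramble and 3 with acetate against CPT1a knockout. Merged peaks gave 27, 23 and 27 in the 3 comparisons with scramble, and ranks of width gave 10 in KAT2a knockout and 4 with acetate against CPT1a knockout. With 1 library left out, the counts were 9 to 15 in CPT1a knockout, 6 to 12 in KAT2a knockout, 7 to 12 with acetate against scramble and 10 to 18 with acetate against CPT1a knockout. Smaller groups overlap less by construction, and shares over all genes under these width settings are not given here.

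With limma, ranks by -log10 p gave 11 calls in CPT1a knockout, 4 in KAT2a knockout and 4 with acetate against scramble. Shares over all genes under the alternative limma settings are not given here, so these counts do not set the enzyme genes apart from other genes. Fitting only the compared groups gave 2 calls in CPT1a knockout, and leaving out 1 library gave 1 to 5. In KAT2a knockout, removing the GC trend gave 1 call, Acot9, with and without the replicate block. No pairing by replicate number was visible in the ranks. The 18 correlations between same-numbered libraries of different groups lay from -0.0630 to 0.0595, and 2 of 12 libraries correlated best with their own number. These values do not show whether same-numbered libraries were handled together. With the replicate block, 4 enzyme genes were called in CPT1a knockout and 0 in each other comparison. The mitochondrial less peroxisomal median became -3.65 points in scramble and 18.3 in KAT2a knockout with the shared promoter counted once and the other enzymes added. At equal calling depth 33 enzyme genes were called in all 12 libraries, and Decr1 was called in 4 libraries, none of them scramble.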
